A study of Mus musculus with 9 samples.

Results

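Growth hormone signalling through its receptor and the transcription factor STAT5 was followed in mouse liver through 10 genes: Ghr, Prlr, Jak2, Stat5a, Stat5b, Socs2, Cish, Bcl6, Cux2 and Igfals. They were chosen by symbol, with no measured value in the rule, and make up 10 of the 30519 rows of the deposited table, in which 1 transcript stands for each gene. All 10 reached a mean abundance of at least 1 over the 9 libraries, the level required for testing, as did 10950 rows in all.

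Growth hormone from the pituitary binds GHR on hepatocytes, the receptor activates the bound tyrosine kinase JAK2, and JAK2 phosphorylates STAT5A and STAT5B, which move to the nucleus and bind DNA. Their hepatic targets include the genes of the circulating growth factor IGF1 and its carrier IGFALS, and Socs2 and Cish, whose products feed back to damp the same receptor. Male mice release the hormone in pulses and females more evenly, which gives STAT5 a sex-dependent activity in liver, and BCL6 and CUX2 are DNA-binding repressors that act on the sex-biased genes downstream.

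The 9 livers came from mice 6 weeks old. Of these, 4 were miR-122 knockouts (KO) and 5 were floxed littermate controls (WT). This microRNA dominates the small RNAs of hepatocytes. KO replicate 1 was female and KO replicates 2 to 4 were male, while WT replicates 1 to 3 were female and WT replicates 4 and 5 were male, so genotype and sex were not balanced. RNA was taken from the part of each pulverised, flash-frozen liver that was not UV crosslinked, and polyA RNA was sequenced. The labels name no driver for the removal of the floxed allele, and genotype labels were not checked on the targeted locus, which is not analysed here. Each animal has its own identifier in the labels, but which animals share a litter is not stated.

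The column of WT replicate 3 carries the word male in its name although the sample is labelled female. The Y-linked gene Ddx3y lay at 0.0422 in that library and at 13.2 to 28.0 in the 5 libraries labelled male, and Eif2s3y at 0.114 against at least 30.2, so the label was kept. Without that library Ghr stood at -0.66 (limma adjusted p = 0.00709) and Stat5b at 0.70 (limma adjusted p = 0.0136) on the log2 scale, KO minus WT. Estimated depth ran from 15.2 to 21.8 M (mega) reads for KO animals and from 11.7 to 19.6 M for WT animals, and the WT males were the shallowest. Summed abundance per library, in M units, was between 0.711 and 0.869 for KO and between 0.873 and 1.17 for WT. Scaling all libraries to the same total moved the median log2 difference of all tested transcripts from 0.03 to 0.36. Where this scaling changed a call among the 10 genes, the difference is therefore also given relative to that median. Sums of hepatocyte markers overlapped, from 48910 to 66020 among KO and 45190 to 108500 among WT livers, as did endothelial sums, from 53.4 to 68.1 and from 51.3 to 72.5. Of the 7 hepatocyte markers tested, 3 fell in KO, beside 14.5% of all tested transcripts, and the median of the 7 was -0.36. Apoa1 fell by 0.45, Apoh by 0.50 and Fgb by 0.66 on the log2 scale (limma adjusted p = 0.0107, 0.0221 and 0.00695). With equal totals 0 of the 7 fell and their median was 0.04, beside 0.36 over all transcripts. Among the males alone 0 of the 7 fell. The part of these markers in the Ghr result was not tested. Sums in KO lay above those in WT for cholangiocyte markers, at 558 to 932 against 33.1 to 59.5, for macrophage markers, at 218 to 291 against 143 to 201, and for stellate cell markers, at 62.7 to 70.5 against 37.5 to 51.5. In whole liver, fewer cells of a type and less RNA per cell cannot be told apart.

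STAT dimers bind the palindrome TTCNNNGAA, which reads the same on both strands, so the promoters of the 10 genes were searched for it. RefSeq promoter windows (GRCm38.p6, 250 bases before to 50 after each annotated start) gave 18 windows for 9 of the genes; Socs2 was not matched. The motif occurred in windows of 4 genes, Cish, Bcl6, Igfals and Prlr, and the stretches that hold it are, 5′ to 3′ on the gene's strand, with the motif in capitals.
Cish, chr9:107296654-107296683, + strand: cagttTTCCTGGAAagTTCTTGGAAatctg
Bcl6, start inside the gene, chr16:23981363-23981451, − strand: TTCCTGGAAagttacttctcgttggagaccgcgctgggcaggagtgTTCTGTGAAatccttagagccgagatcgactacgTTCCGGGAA
Bcl6, 5′-most start, chr16:23988951-23988980, − strand: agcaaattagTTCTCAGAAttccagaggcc
Igfals, upstream start, chr17:24877598-24877627, + strand: gatctataatTTCTCAGAAaagaggctgag
Igfals, start nearest the measured transcript, chr17:24878163-24878192, + strand: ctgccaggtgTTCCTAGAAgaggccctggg
Prlr, start nearest the measured transcript, chr15:10223786-10223815, + strand: gcaaaatgagTTCTAGGAAtaagggatatc
The Cish window held 2 copies, the first beginning at the RefSeq start and inside the first exon of the measured transcript. One Bcl6 window held 3 copies within 89 bases. Of all 32851 RefSeq windows of this length, 8.3% held the motif at least once, 0.457% at least 2 times and 0.0335% at least 3 times. The letters were not found in the windows of Ghr, Jak2, Stat5a, Stat5b and Cux2. The Cux2 windows lie at -132753 and -134779 bases from the start of its measured transcript. The Cish window is set on a RefSeq start 633 bases downstream of the start of its measured transcript. The promoters of the measured Cux2 and Cish transcripts were therefore not searched. A match is a description of the sequence and does not show binding.

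Of the 10 genes, Ghr fell and Stat5b rose in KO liver, and the other 8 did not pass the test (limma on log2(abundance + 1), adjusted p under 0.05 over all tested transcripts). This count of 2 of 10 stands beside 35.9% of all tested transcripts called in the same comparison, 21.4% higher and 14.5% lower in KO. The median log2 difference of the 10 was -0.04, beside 0.03 over all tested transcripts. Libraries of the 2 genotypes did not overlap for Ghr and Stat5b, beside 31.1% of all tested transcripts, 19.0% higher and 12.1% lower in KO. The KO female lay below every WT female for 5 of the 10 genes and above for 2, beside 32.9% and 39.6% of all transcripts. By the authors' deposited q-values the same 2 genes passed 0.05, with 25.2% of the 13540 transcripts that carry one (13.6% higher, 11.6% lower in KO).

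**Figure D1:**
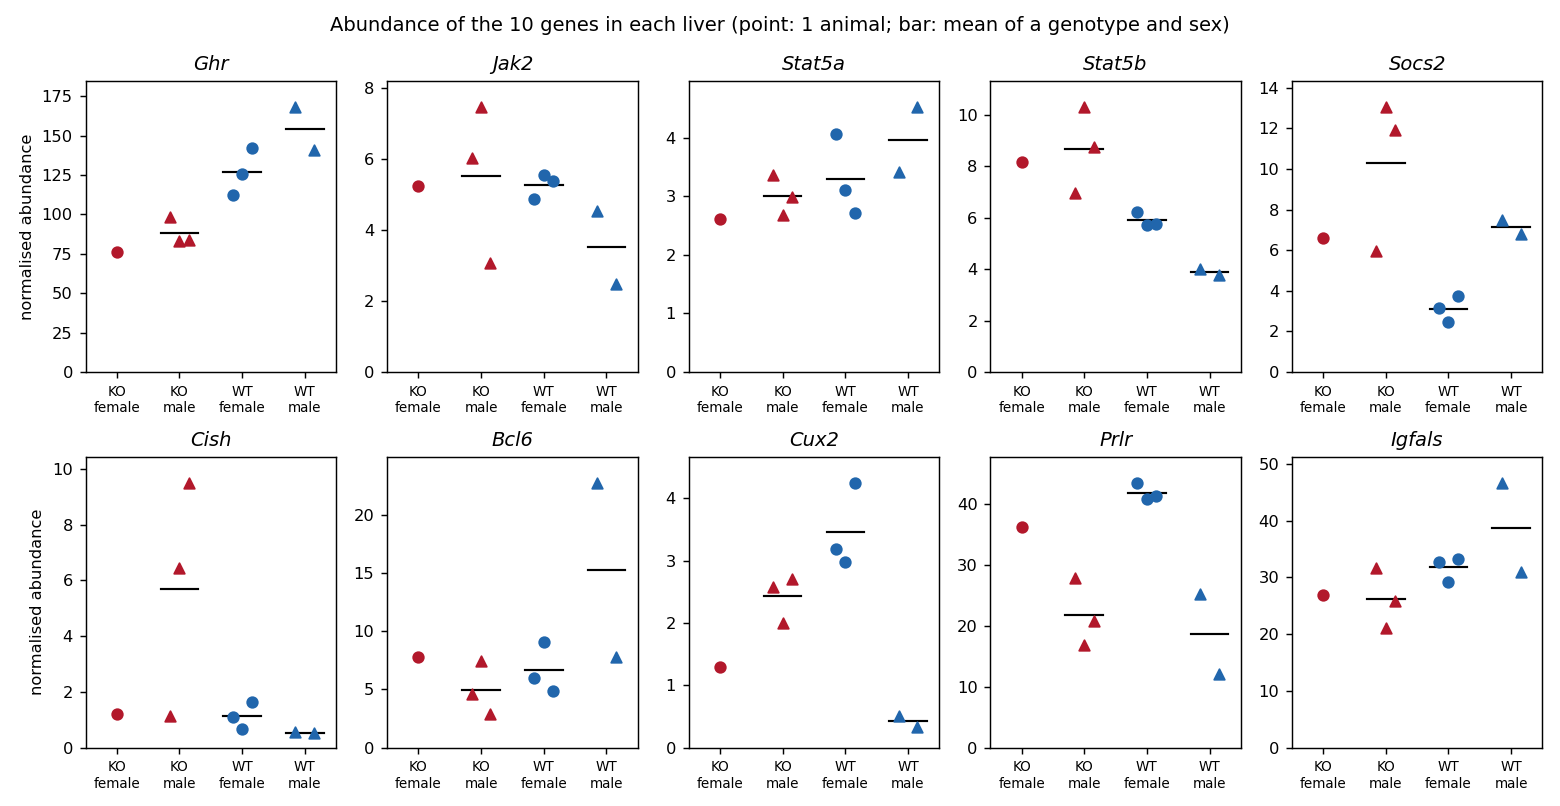
Normalised abundance (y axis, linear, from 0) of the 10 genes in each liver, by genotype and sex (x axis); each point is 1 animal, circles are females, triangles males, and bars are means where a genotype and sex holds more than 1 animal. All 4 KO points of Ghr lie below, and all 4 of Stat5b above, the 5 WT points. Both WT males lie below all WT females for 5 of the 10 genes, Cux2, Prlr, Stat5b, Jak2 and Cish, and above for 1, Socs2. Over all tested transcripts these shares were 14.6% and 15.1%.

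The receptor transcript Ghr was lower in every KO liver. Its abundance was 76.1 in the KO female and 98.6, 82.9 and 83.9 in the KO males, against 112, 125.9 and 142 in the WT females and 168 and 141 in the WT males. The highest KO liver stayed under the lowest WT liver, and both sexes showed the gap. Means were 85.4 ± 9.48 (SD, n = 4) in KO and 137.9 ± 20.8 (SD, n = 5) in WT, a 1.62-fold lower mean. The log2 difference was -0.68 (SE 0.12), with a limma adjusted p of 0.00231, and the authors' deposited table gave -0.73 with q = 3.7e-06. Among the males alone it was -0.80 (limma adjusted p = 0.0158). With libraries scaled to equal totals the difference was -0.28 and no longer passed (limma adjusted p = 0.0707), while relative to the median of all transcripts it was -0.71 on the deposited scale and -0.65 on the rescaled one.

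The row that stands for Ghr is Ghr-203 (ENSMUST00000110698, GENCODE M21 on GRCm38, chr15:3327525-3583188, − strand), with 9 exons and a coding sequence of 297 residues. The longest annotated product of the gene, from Ghr-201, has 650 residues. Short Ghr products lack the membrane-spanning and intracellular parts and circulate as growth hormone binding protein in mice. The table therefore describes this short form, estimated from 1360 to 2280 reads a library, and the full-length receptor transcript was not analysed here.

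Prlr, which encodes the prolactin receptor, a relative of GHR that signals through the same kinase, passed neither the test of genotype nor that of sex within WT. Its abundance was 43.4, 40.8 and 41.2 in WT females and 25.3 and 12 in WT males, and 36.3 in the KO female and 27.8, 16.9 and 20.8 in the KO males. Females lay above males within each genotype, and KO males lay inside or above the range of the WT males. The genotype difference was -0.27 (SE 0.37) with a limma adjusted p of 0.615, and the male-minus-female difference in WT was -1.21 (SE 0.29) with a limma adjusted p of 0.121. The latter was -1.72 without WT replicate 4 and -0.71 without WT replicate 5, fits that each leave a single WT male. The row is Prlr-205 (chr15:10223986-10349180, + strand), which encodes 310 residues against 608 for the longest form, Prlr-202, so it too describes a short receptor form.

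Jak2, the receptor-bound kinase, and Stat5a did not pass the test. Jak2 (Jak2-202, chr19:29251828-29313080, + strand) lay at 5.24 in the KO female, 6.02, 7.44 and 3.08 in the KO males, 4.86, 5.55 and 5.38 in the WT females, and 4.54 and 2.48 in the WT males. The genotypes overlapped throughout, with a log2 difference of 0.20 (SE 0.24, 95% confidence interval -0.34 to 0.74, limma adjusted p = 0.552). The authors' deposited table gives Jak2 a technical variance of 0.708 on the natural log scale, a technical SD of 1.21 on the log2 scale, which exceeds that of 93.1% of all rows. The gene has 4 annotated transcripts, all coding, and reads shared between them can pass from one to another in such estimates, which was not tested here. Stat5a (Stat5a-202, chr11:100859656-100885169, + strand) lay at 2.61, 3.36, 2.68 and 2.99 in KO replicates 1 to 4 and at 4.07, 3.1, 2.71, 3.42 and 4.52 in WT replicates 1 to 5, with overlapping ranges. Its log2 difference was -0.21 (SE 0.13, 95% confidence interval -0.50 to 0.07), with a limma adjusted p of 0.225.

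Stat5b, the STAT5 form that carries most of the sex-dependent growth hormone response in liver, rose in KO. Its abundance was 8.16 in the KO female and 6.95, 10.3 and 8.76 in the KO males, against 6.21, 5.73 and 5.76 in the WT females and 4.02 and 3.79 in the WT males. The lowest KO liver was above the highest WT liver, and the 2 WT males were the lowest of all 9. Means were 8.54 ± 1.39 (SD, n = 4) in KO and 5.10 ± 1.11 (SD, n = 5) in WT, a 1.67-fold higher mean. The log2 difference was 0.65 (SE 0.15), with a limma adjusted p of 0.00887, and the authors' deposited q was 0.0128. Among the males alone it was 0.96 (limma adjusted p = 0.0177), and with sex as a covariate 0.75 (limma adjusted p = 0.00435). Scaling to equal totals gave 1.00 (limma adjusted p = 0.0027), and relative to the median of all transcripts Stat5b stood at 0.63 on either scale. The transcript is Stat5b-201 (chr11:100780731-100850724, − strand), which encodes 786 residues and was estimated from 174 to 918 reads a library. Stat5a and Stat5b are neighbouring paralogs with closely similar coding sequences, so reads that fit both could be divided between them.

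**Figure D2:**
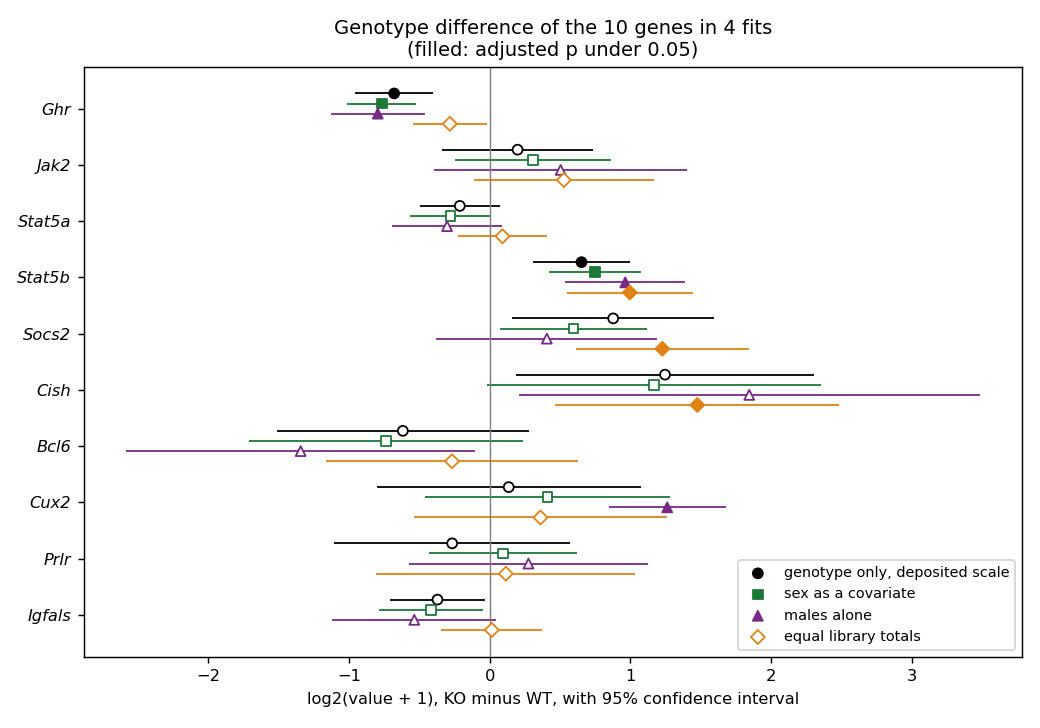
Genotype difference (x axis, log2(abundance + 1), KO minus WT) of the 10 genes (y axis) in 4 limma fits, with 95% confidence intervals; filled markers passed an adjusted p of 0.05. Ghr lies left of 0 and Stat5b right of 0 in all 4 fits shown, and scaling to equal library totals moves every marker to the right of its genotype-only value.

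Socs2 and Cish encode SOCS-family inhibitors that STAT5 induces and that bind the activated receptor. Both had higher means in KO liver, but neither passed the test on the deposited scale. Socs2 (Socs2-201, chr10:95411490-95416857, − strand) lay at 6.62 in the KO female and 5.95, 13 and 11.9 in the KO males, against 3.14, 2.48 and 3.74 in the WT females and 7.51 and 6.81 in the WT males. Within WT both males exceeded all females, and the KO female lay above every WT female, while KO replicate 2 lay below both WT males. Means were 9.38 ± 3.62 (SD, n = 4) and 4.73 ± 2.27 (SD, n = 5), and the log2 difference of 0.88 (SE 0.32) had a limma adjusted p of 0.0568. It passed with equal totals (1.23, limma adjusted p = 0.00481), although relative to the median of all transcripts it was 0.85 before and 0.87 after that scaling. It was 0.41 among the males alone (limma adjusted p = 0.399). With sex as a covariate the Socs2 difference was 0.60 (limma adjusted p = 0.0762). Without KO replicate 2, WT replicate 4 or WT replicate 5 the adjusted p was 0.0453, 0.0315 and 0.038 in the genotype-only limma fit. Leaving out any other animal gave a limma adjusted p of 0.0581 to 0.152.

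Cish (Cish-201, chr9:107296026-107301987, + strand) was high in 2 livers only. It lay at 6.44 and 9.49 in KO replicates 3 and 4, both males, and at 1.22 in the KO female and 1.15 in KO replicate 2. WT females lay at 1.09, 0.666 and 1.65 and WT males at 0.557 and 0.511. Estimated reads ran from 283 and 509 in the 2 high livers to 12.9 in WT replicate 5. Means were 4.57 ± 4.11 (SD, n = 4) in KO and 0.895 ± 0.481 (SD, n = 5) in WT, a 5.11-fold difference that rests on those 2 animals. The log2 difference was 1.25 (SE 0.47, limma adjusted p = 0.0661), and the authors' deposited q was 0.0995. Without KO replicate 3 or 4 it was 0.99 and 0.83 (limma adjusted p = 0.173 and 0.159). It passed with equal totals (1.48, limma adjusted p = 0.0217), without KO replicate 1 (1.57, limma adjusted p = 0.0315) and without KO replicate 2 (1.59, limma adjusted p = 0.0299). Relative to the median of all transcripts Cish was 1.22 on the deposited scale and 1.11 with equal totals.

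The same 2 KO livers were highest in the summed neutrophil markers, at 102 or more, against 59.3 and 57 in the other two KO livers, 64.4 in WT replicate 5 and 11.2 to 19.2 in the other WT livers. This sum is carried by S100a8 and S100a9, while Ly6g was at 0 in 7 of the 9 libraries and Mpo did not exceed 0.214. T cell markers summed to 5.26 and 3.08 in these livers, 2.32 and 2.95 in the other two KO livers, and 1.21 to 2.53 in WT. For B cell markers the sums were 2.05 to 3.26 among KO and 1.77 to 2.95 among WT livers. Their part in the Cish and Socs2 values was not tested.

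Profiles over the 9 libraries were compared by the mean absolute difference of centred log2 values. Nearest to Cish were Iglv1 and Ighg2b, which encode immunoglobulin chains, at 0.304 and 0.385, and Slc25a30, a mitochondrial carrier, at 0.394. Slc25a30 lay at 53.7 and 31.2 in KO replicates 3 and 4, at 10.5 and 21.5 in KO replicates 1 and 2, and at 8.55 to 11.7 in WT. Nearest to Ghr were Pyurf at 0.083, Polr3g at 0.087 and Aspa, the enzyme that cleaves N-acetylaspartate, at 0.09. Nearest to Socs2 were Ppp1r14a at 0.188, Kdm2b at 0.21 and Rfx5 at 0.218.

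Bcl6 and Cux2 are the sex-dependent repressors of the group; in mouse liver Bcl6 is more abundant in males and Cux2 in females. Bcl6 (Bcl6-201, chr16:23965052-23988852, − strand) lay at 7.77 in the KO female and 4.64, 7.41 and 2.88 in the KO males, against 5.98, 9.11 and 4.9 in WT females. The WT males lay at 22.7 and 7.8 and set the spread, with WT replicate 4 far above every other liver. The log2 difference between genotypes was -0.62 (SE 0.40, limma adjusted p = 0.26), and among the males -1.34 (limma adjusted p = 0.114). Without WT replicate 4 the KO-minus-WT difference was -0.30 (limma adjusted p = 0.454).

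Cux2 was the only one of the 10 genes whose sex difference in WT liver passed the test, and the only one with a genotype-by-sex term past it. Its abundance was 3.18, 2.97 and 4.24 in WT females and 0.51 and 0.34 in WT males. In KO it was 1.29 in the female and 2.58, 1.99 and 2.71 in the males, so all KO males lay above both WT males and the KO female lay below every WT female. The male-minus-female difference in WT was -1.64 (SE 0.17, limma adjusted p = 0.00437), where 1.19% of all tested transcripts were called; without WT replicate 3 it was -1.52 (limma adjusted p = 0.0143). Over both sexes the genotype difference was 0.14 (SE 0.42, limma adjusted p = 0.827), and among the males alone 1.26 (SE 0.17, limma adjusted p = 0.00776), where 20.2% of all transcripts were called. The genotype-by-sex term was 2.21 (SE 0.28, 95% confidence interval 1.57 to 2.85, limma adjusted p = 0.0408), 1 of 13 such calls, or 0.119% of the transcripts tested.

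This term rests on a single KO female, whose spread was assumed to equal that of the other animals. Leaving out any 1 of the other 8 animals kept it between 2.09 and 2.31, but its adjusted p rose to between 0.0515 and 0.137, and it was 2.09 (limma adjusted p = 0.0835) without WT replicate 3. The row is Cux2-204 (chr5:121879815-121915072, − strand), a processed transcript of 740 bases with no annotated coding sequence, whereas Cux2-202 encodes 1426 residues; coding Cux2 was not analysed here. Estimated reads were 17.9 to 39.6 in the KO and WT female livers and the KO males, but 3.18 and 1.92 in the WT males, too few for a fold. Opposite shifts of this kind, with the KO female beyond all WT females one way and the KO males beyond the WT males the other, were seen in 4.11% of all tested transcripts.

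Igfals, which encodes the liver-made subunit that holds IGF1 in its circulating complex, did not pass the test. It lay at 26.9 in the KO female and 31.6, 21.1 and 25.9 in the KO males, against 32.8, 29.2 and 33.2 in the WT females and 46.6 and 30.9 in the WT males. Ranges overlapped through KO replicate 2, and the difference was -0.37 (SE 0.15, limma adjusted p = 0.0831). It was 0.02 (limma adjusted p = 0.944) with equal totals and -0.46 (limma adjusted p = 0.0414) with libraries centred on their medians. Igf1 lay at 175 to 266 in KO and 135 to 227 in WT, with a difference of 0.19 (SE 0.17, limma adjusted p = 0.412) that passed with equal totals (0.59, limma adjusted p = 0.00861), as did 45.0% of all transcripts in that direction. Relative to the median of all transcripts Igf1 stood at 0.16 and 0.23 on the deposited and rescaled values, and Igfals at -0.40 and -0.35.

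Abundances are per transcript length, so levels of the measured transcripts can be set in order. In WT liver Ghr was the most abundant at 137.9 ± 20.8, and its lowest WT library, at 112, lay above the highest of any other gene. Igfals at 34.5 ± 6.92 and Prlr at 32.6 ± 13.6 (SD, n = 5) followed and did not differ beyond their spread. Bcl6 at 10.1 ± 7.23 overlapped Stat5b at 5.10 ± 1.11, which overlapped Socs2 at 4.73 ± 2.27, Jak2 at 4.56 ± 1.23 and Stat5a at 3.57 ± 0.729. Cux2 at 2.25 ± 1.73 overlapped Stat5a through the WT females, and Cish, at 0.895 ± 0.481, had the lowest mean and overlapped Cux2, which lay under it in both WT males. In KO liver the means placed Socs2, at 9.38, and Stat5b, at 8.54, above Bcl6, at 5.67, with overlapping ranges.

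Further kinases, adaptors, phosphatases and regulators of the receptor complex were listed as 19 genes, of which 16 were tested. Among these, 6 rose in KO and 10 did not pass, beside 21.4% of all transcripts called higher, and their median log2 difference was 0.33. Sirpa, a membrane docking protein for SHP phosphatases that is abundant on myeloid cells, had a mean of 6.25 ± 1.85 (SD, n = 4) against 2.29 ± 0.433 (SD, n = 5), a 2.73-fold difference (limma adjusted p = 0.0012). Jak1, the sister kinase used by cytokine receptors, lay at 34.1 to 38.5 in KO and 26.0 to 29.1 in WT (log2 difference 0.38, limma adjusted p = 0.00178). Adam17, a protease that sheds the growth hormone receptor, lay at 7.61 to 9.42 in KO and 5.32 to 6.72 in WT (0.46, limma adjusted p = 0.00302). Tyk2, Ptpn1 and Lyn were the other three that rose, by 0.32, 0.31 and 0.39. Among the males alone 1 of the 16, Sirpa, passed, beside 12.9% of all transcripts called higher. With equal totals 12 did, where 45.0% of all transcripts were called higher. The authors' deposited q was 0.307 for Sirpa and 0.647 for Adam17, with technical SDs of 1.18 and 0.685 on the log2 scale. Macrophage markers were also higher in KO, as given above, and their part in Sirpa was not tested.

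Among other STAT, SOCS and PIAS genes, 15 were listed, 13 were tested and 1 fell, beside 14.5% of all transcripts. This was Pias2, an inhibitor of activated STATs, at 5.88 to 6.59 in KO against 6.87 to 9.06 in WT (log2 difference -0.26, limma adjusted p = 0.0349). With equal totals Pias2 stood at 0.09 (limma adjusted p = 0.546), while relative to the median of all transcripts it was -0.29 on the deposited scale and -0.28 on the rescaled one. That scaling called 6 of the 13 higher, beside 45.0% of all transcripts. Its call ended when any 1 animal other than WT replicate 2 or 5 was left out, with limma adjusted p of 0.0513 to 0.0923. Socs3, an inhibitor induced by inflammatory cytokines through STAT3, lay at 3.9 to 8.0 in KO and at 1.28 to 3.83 in WT apart from WT replicate 5, at 19.96 (limma adjusted p = 0.654).

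Among 12 transcription factors that act with STAT5 on hepatocyte genes, 2 rose, beside 21.4% of all transcripts. Onecut1 (HNF6), which cooperates with STAT5 at female-biased genes, lay at 4.66 in the KO female and 5.81, 13.2 and 10.2 in the KO males, against 1.58, 1.71 and 2.02 in the WT females and 3.32 and 3.85 in the WT males. The genotypes did not overlap, with means of 8.45 ± 3.93 (SD, n = 4) and 2.50 ± 1.02 (SD, n = 5), a 3.38-fold difference (log2 1.38, SE 0.30, limma adjusted p = 0.00568). Among the males alone it was 1.16 with a limma adjusted p of 0.0515. Foxa1, a pioneer factor, lay at 4.52 to 8.49 in KO and 3.5 to 4.95 in WT (0.56, limma adjusted p = 0.026), and did not pass with sex as a covariate (limma adjusted p = 0.0526). Its call also ended without KO replicate 3 or 4 or without WT replicate 1, 2 or 3, with limma adjusted p of 0.0534 to 0.0728. Nr3c1, the glucocorticoid receptor and a STAT5 coactivator, passed among the males alone (-0.57, limma adjusted p = 0.0314) but not over both sexes (-0.35, limma adjusted p = 0.081). The median over the 12 was -0.01.

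Secreted and membrane products that respond to growth hormone were listed as 12 genes, all tested, and 2 fell, beside 14.5% of all transcripts. Prothrombin (F2) lay at 625 to 708 in KO and 760 to 859 in WT (log2 difference -0.33, limma adjusted p = 0.0102). Serpina3n, a serine protease inhibitor, lay at 159 to 196 in KO and 200 to 257 in WT (-0.37, limma adjusted p = 0.0194). The median over the list was -0.35. With equal totals the same values were 0.07 for F2 and 0.02 for Serpina3n, and neither passed; relative to the median of all transcripts F2 was -0.36 and -0.29, and Serpina3n -0.40 and -0.34, on the 2 scales. With sex as a covariate 4 of the 12 fell, beside 13.8% of all transcripts: these 2, Egfr, the epidermal growth factor receptor (-0.99, limma adjusted p = 0.0064), and Serpina3k (-0.97, limma adjusted p = 0.0452), the last pair named after their values were seen. The authors' deposited q for F2 was 0.0824. Serpina3n also missed without KO replicate 1 or 2 (limma adjusted p = 0.0552 and 0.0595).

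Sex-biased liver genes are the best known readout of growth hormone pattern and STAT5 in mice, and 22 male-biased and 28 female-biased genes were listed from knowledge of the field. Earlier results of these data were known when the lists were drawn up, so their counts are not independent of these data. In WT liver 19 of 21 tested male-biased genes were higher in both males than in all females, where 15.1% of all transcripts were, and 25 of 27 tested female-biased genes were lower in both males, where 14.6% were. The WT sex difference passed the test for 13 and 17 of them, beside 1.19% of all transcripts (0.63% higher and 0.557% lower in males). Their median male-minus-female difference on the log2 scale was 3.40 for the male-biased and -4.43 for the female-biased genes.

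In KO liver the same ordering held for most genes but with smaller gaps. All KO males exceeded the KO female for 19 of the 21 male-biased genes and lay under it for 26 of the 27 female-biased genes, beside 28.5% and 24.9% of all transcripts. Median gaps were 1.30 and -1.79, and the gap was smaller in KO than in WT for 17 of the 21 and 21 of the 27, beside 50.3% of all transcripts, where the KO side rests on 1 female. The lists were chosen for a sex gap and all transcripts were not, so 50.3% is not a like-for-like share. Genes with a large WT gap can show a smaller one in any second set of animals, which was not tested. Among males alone, 11 of 21 male-biased genes fell in KO and 0 rose. Of 27 female-biased genes 7 rose and 2 fell. Over all transcripts 7.38% fell and 12.9% rose in that fit. KO males lay below both WT males for 13 male-biased genes, where 23.8% of all transcripts did, and above both for 12 female-biased genes, where 30.1% did. They lay above both for 1 male-biased gene and below both for 3 female-biased genes. The KO female lay below every WT female for 18 of the 27 female-biased genes and above for 7, beside 32.9% and 39.6% of all transcripts. For the 21 male-biased genes it lay below for 7 and above for 7. The KO female thus lay lower for most female-biased genes but showed no preferred direction for the male-biased ones. This rests on a single animal. The genotype-by-sex term passed for 0 of either list in the limma fit, with 10 and 12 genes at an unadjusted p under 0.05, beside 1173 of all 10950 transcripts. Many of these genes, the Mup, Cyp2c, Cyp3a, Cyp4a12 and Cyp2b families in particular, have near-identical copies between which reads can be divided.

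Single genes, chosen for display after their values were seen, show the pattern. Elovl3, a fatty acid elongase, lay at 173 and 350 in WT males and 2.17 to 7.91 in WT females, but at 0.632, 1.74 and 1.5 in KO males and 0.382 in the KO female. Hsd3b5, a steroid dehydrogenase, lay at 245 and 230 in WT males and at 0.553, 3.87 and 6.05 in KO males. Its WT females lay at 0.0801 to 4.6, so KO males were under the WT female range for Elovl3 and within or just above it for Hsd3b5. Cyp2b9, a female-biased cytochrome P450, lay at 279, 418 and 248 in WT females and 14.2 and 1.12 in WT males, but at 171, 128 and 114 in KO males and 222 in the KO female. The genotype-by-sex term of Elovl3 was -4.72 on the log2 scale, with a limma adjusted p of 0.128.

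**Figure D3:**
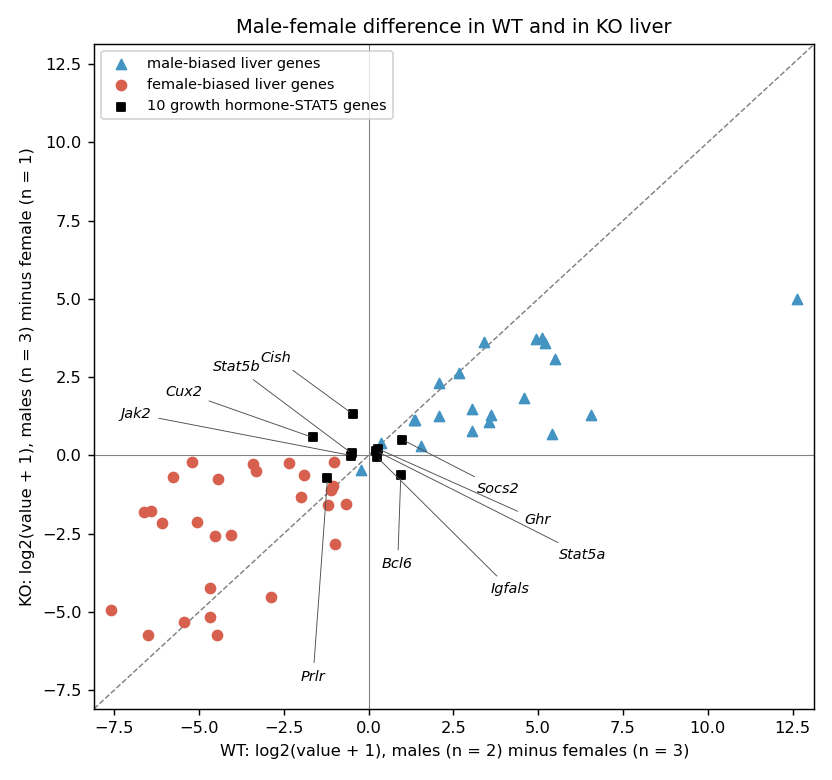
Male-minus-female difference in WT (x axis, 2 males and 3 females) and in KO (y axis, 3 males and 1 female), both in log2(abundance + 1), for tested male-biased genes (triangles), female-biased genes (circles) and all 10 genes of the growth hormone and STAT5 group (squares); the dashed line marks equal differences. Points lie nearer to 0 on the KO axis than on the WT axis for 17 of 21 male-biased and 21 of 27 female-biased genes, beside 50.3% of all transcripts, which were not chosen for a sex gap. Cux2, Bcl6, Cish, Stat5b and Igfals have opposite signs on the 2 axes.

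Over both sexes, where the groups hold unequal shares of males, Prom1, a membrane protein of bile duct progenitors listed for its female bias, rose, at 25.9 in the KO female and 7.56 to 9.1 in KO males against 0.37 to 1.58 in WT (log2 difference 2.66, limma adjusted p = 0.000357). Cholangiocyte marker sums moved with it, as given above, and their part in Prom1 was not tested. The authors' deposited table gave Prom1 a technical SD of 1.03 on the log2 scale and a q of 5.97e-06. Fmo2 rose by 1.27 (limma adjusted p = 0.0309, authors' deposited q 0.149, technical SD 0.987 on the log2 scale) and the male-biased G protein gene Gna14 by 0.56 (limma adjusted p = 0.0227). Cyp2c40 fell by 4.07 on the log2 scale (limma adjusted p = 0.00122), from 279 to 1125 in WT to 157 in the KO female and 13.6 to 31.3 in the KO males. Cyp2c69 fell by 4.32 (limma adjusted p = 0.0161, and 0.0518 without KO replicate 3). Cyp39a1, an oxysterol hydroxylase, fell by 1.52 (limma adjusted p = 0.0335). Fitted on males only, the Cyp39a1 difference shrank to -0.54 and was not called (limma adjusted p = 0.101). Scaling every library to the same total gave -1.18, also not called (limma adjusted p = 0.0761). The fit that included sex as a covariate kept the Cyp39a1 call, at -1.03 (limma adjusted p = 0.0139). Gna14 was not called in the male-only fit either, at 0.43 (limma adjusted p = 0.153). The call of Cyp39a1 ended without any 1 of KO replicates 2 to 4 or WT replicates 1 to 3 (limma adjusted p = 0.0618 to 0.0863), that of Fmo2 without any of KO replicates 1 to 3 and without WT replicate 1 or 4 (0.0507 to 0.0807), and that of Gna14 without KO replicate 3 or 4 (0.0561 and 0.0633). With sex as a covariate 9 of 21 male-biased genes fell and 1 rose, while 5 of 27 female-biased genes rose and 3 fell. Over all transcripts 13.8% were lower and 20.0% higher in that fit. The female-biased rises were thus near the share over all transcripts.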

How the data were processed

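PolyA RNA-seq of 4 KO and 5 WT livers was used, grouped by the genotype in the labels, with sex from the same labels. The submitters' processing notes name kallisto, sleuth and mm10; their versions, the transcript set and the choice of 1 transcript per gene, not given in the sources used here, can bear on each value. The authors deposited 1 table, in which the per-library columns hold a normalised signal per transcript length that is not TPM, since totals differ. Per the file headers, p-value and q-value columns are the authors' own, and their coefficient, its standard error and the variance terms are on the natural log scale; the coefficient equals WT minus KO and was turned to KO minus WT in log2 here. No per-library column was left without a sample (0).

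Transcripts with a mean of at least 1 were log-transformed as log2(value + 1) and compared in R 4.3.3 by limma 3.58.1, fitting genotype alone and letting the prior variance follow abundance; p-values of 10950 transcripts were adjusted by Benjamini-Hochberg and called at 0.05; the step was tested on simulated data. This scale understates changes of low transcripts, and folds are ratios of means. A fit with 1 mean for each genotype and sex gave the WT sex difference and the genotype-by-sex term. Reads were estimated from the step between low values and the mean observation; 54.2 to 79.9% of low values were whole within 0.1 read, so no count test was run. No library pair was identical (highest r 0.981).

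Named were the 10 genes, Igf1, up to 3 genes called in each direction per list, and the 3 nearest profiles of Ghr, Socs2 and Cish, without predicted genes and pseudogenes. Other genes were named after their values were seen. The members and lists were chosen with earlier results of these data known. Transcript models came from GENCODE M21 and promoters from RefSeq. Alternatives were other pseudocounts, filters and scalings, sex as a covariate, males alone, a replicate block, a prior without trend, the authors' q and leaving out each animal. Some listed genes are not reported here by name.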

Additional observations from a re-analysis of the deposited data

Results flagged for a closer look

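Among 50 groups of 4 or 5 libraries examined, 6 held a library whose gap to its nearest neighbour took up most of the group's range. Chance gives about 1 in 20 in groups of like animals, but these groups mix the sexes. Some of the genes were also named for their calls in these data, so that rate is not a like-for-like share here. Bcl6 in WT replicate 4, a male, was 22.7 against 4.9 to 9.11 in the other WT livers. Igfals in the same library was 46.6 against 29.2 to 33.2. F2 in WT replicate 5 was 760 against 846 to 859. The KO female stood apart from the 3 KO males for the listed female-biased genes Prom1 at 25.9, Cyp2c40 at 157 and Cyp2c69 at 211. The genotype difference of Cux2 differed between the sexes, with a genotype-by-sex term of 2.21 on the log2 scale.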

How the results depend on the processing

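Ghr kept its direction in every alternative (log2 -0.80 to -0.28) and lost its call only with equal totals; Stat5b kept direction and call throughout (0.56 to 1.00). Of 10 genes, 2 were called, with 3 under equal totals, median centring, males alone and the replicate block, and 2 to 4 when 1 animal was left out, 4 without KO replicate 2. Over all transcripts 3934 calls became 2589 with a filter at a mean of 5, which tests fewer genes, 2216 in males alone, with fewer animals, and 3170 to 3996 with 1 animal left out. For the listed genes 17 calls became 31 with equal totals, 29 with sex as a covariate, 26 with the replicate block, and 9 to 25 with 1 animal left out (9 without KO replicate 3); the cause was not tested. F2, Pias2 and Serpina3n reversed with equal totals, to 0.069, 0.085 and 0.023, a scaling that moved the median of all transcripts from 0.03 to 0.36; relative to that median they stayed at -0.29, -0.28 and -0.34. The 130 calls by sex in WT ranged from 56 (without WT replicate 5) to 319 (without WT replicate 4), and the 13 genotype-by-sex calls fell to 3 with a filter at a mean of 5 and ranged from 3 (without KO replicate 3) to 30 (without WT replicate 4). Among the 10 genes the WT sex call count was 1, with 1 to 2 when an animal was left out, and the genotype-by-sex count of 1 became 0 in each such fit; both were 0 with a filter at a mean of 5, which drops Cux2. Leaving out KO replicate 1 gives no genotype-by-sex term, as no KO female remains. Deviations of same-numbered KO and WT livers from their genotype mean correlated at 0.229, 0.0823, -0.184 and 0.113. Sex was left in these deviations, and replicates 2 and 3 differ in sex between the genotypes. The correlations therefore cannot decide whether animals were paired. The replicate block used numbers 1 to 4, left out WT replicate 5, and gave 3552 calls and Socs2 at 1.01 (limma adjusted p = 0.00888). Among the 10 genes the least precise values are Cux2 in WT males and Cish in WT, with few reads, and Jak2, with a technical variance of 0.708. Outside them, technical variance was also high for Sirpa (0.668), Prom1 (0.509) and Fmo2 (0.468), beside a median of 0.0121 over all rows with one.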
